A study of Mus musculus with 6 samples.

Results

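Uterine gland marker genes were followed as a set of 10: the transcription factor genes Foxa2 and Sox9, the genes of secreted proteins Spink1, Cxcl15, Prss28, Prss29, Ttr and Clu, and the epithelial genes Calb1 and Kcnn4. The members were chosen by name, and every probe set annotated to 1 of these symbols alone was used, which gave 25 of 45037 probe sets and 10 of 18193 genes. Uterine horns of C57BL6J mice gave total RNA for 6 Affymetrix mouse arrays with 1 colour, and each array held the RNA of 2 uteri. The control group (3 arrays) carried SF1LsL/+, a conditional SF1 transgene, without Cre. The SF1 group (3 arrays) carried the same allele together with Pgrcre/+, so that SF1, a nuclear receptor of steroidogenic tissues, is by design made in cells that express the progesterone receptor gene Pgr. These cells include epithelium, stroma and muscle of the uterus, and the Cre allele at Pgr was absent from control. Tissue was taken 2 weeks after a surgery. The kind of surgery and the age of the mice are not given in the sources used here.

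Uterine glands grow as tubes from the luminal epithelium into the stroma, and their secretions are needed for implantation in mice. In the mouse uterus the forkhead factor Foxa2 is made in the glandular epithelium, and loss of Foxa2 impairs gland formation and the induction of the cytokine gene Lif in glands. Several gland secretions, among them the proteases encoded by Prss28 and Prss29, are known to depend on progesterone, so that their level varies with the hormonal state. Clu, Calb1 and Sox9 are not particular to glands and are also made by other epithelial cells.

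The deposited values are intensities on a linear scale, with array medians between 149.9 and 162.2. The file gives no detection call, so a dim probe set cannot be told from one without signal. Changes below are SF1 minus control on the log2(intensity + 16) scale, which understates changes of dim genes. Where a gene had several probe sets, the one with the highest mean log2 value stands for it, and a gene was called at a limma adjusted p under 0.05 over all probe sets. As a measure of RNA quality, beta-actin control probes gave a 3' over 5' ratio of 2.51 ± 0.107 in the control arrays and 2.19 ± 0.123 in the SF1 arrays (SD, n = 3). The difference had an exact permutation p of 0.1 (two-sided), which is the minimum for groups of 3. The same ratio for Gapdh probes was 1.62 ± 0.0877 and 1.54 ± 0.104 (exact permutation p = 0.3, two-sided), and the part of either in the results was not tested. Neither probe set of Nr5a1, the gene of SF1, was called (log2 changes of 0.00 and 0.08; limma adjusted p = 0.992 and 0.535). They check no label, since it is unknown whether the transgene contains their target. The labels do not say whether the pools were processed apart, and p-values measure the spread between these pools.

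The gland markers did not move as 1 group. Foxa2 and Clu were higher in SF1, Cxcl15, Calb1 and Ttr were lower, and Sox9, Spink1, Prss28, Prss29 and Kcnn4 were not called. Thus 2 of 10 genes were called higher, against 8.37% of all genes, and 3 were called lower, against 8.11% of all genes. All 10 were measured, and none was removed by a filter. The median log2 change of the 10 genes was 0.06, beside -0.05 over all genes, but -0.25 when arrays were centred on pan-epithelial genes, and members lay between -2.36 and 2.27. Of the 25 probe sets, 5 were called higher (5.88% of all probe sets were) and 7 lower (8.08% of all probe sets were), and 13 were not called. The 3 SF1 arrays did not overlap the 3 control arrays for 5 of 10 member genes, the 5 that were called, beside 39.9% of all genes, and for 14 of the 25 probe sets, beside 36.7% of all probe sets. In whole uterine horn, fewer gland cells and less RNA per gland cell cannot be told apart.

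**Figure D1:**
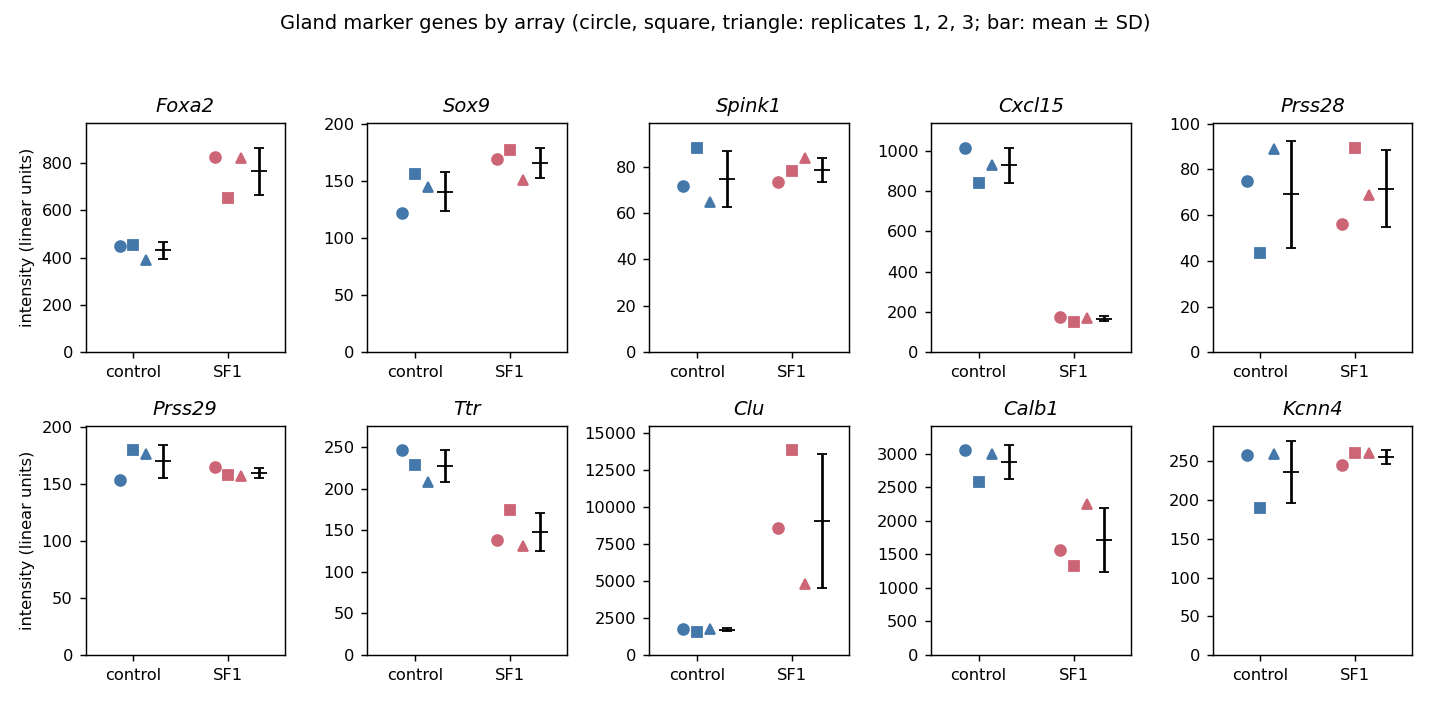
Intensity of the 10 gland marker genes on each array, 1 panel per gene with its own linear axis from 0, control in blue and SF1 in red, with the mean and SD of 3 arrays beside the points. Foxa2 and Clu lie higher in all 3 SF1 arrays, Cxcl15, Ttr and Calb1 lie lower, and the groups overlap for the other 5 genes.

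Foxa2, the gland transcription factor, was higher in SF1. In replicates 1, 2 and 3 its single probe set read 449, 455 and 388 in control, and 825, 652 and 822 in SF1. The lowest SF1 array, replicate 2, still lay above the highest control array. The mean was 431 ± 36.8 for control (SD, n = 3) and 766 ± 99.2 for SF1, a ratio of 1.78, and the log2 change was 0.80 ± 0.11 (SE; 95% interval 0.54 to 1.06; limma adjusted p = 0.00219). No other probe set was annotated to Foxa2 alone, so no independent probe set checks this value. Relatives of the member transcription factors were Foxa1, Foxa3, Sox8 and Sox10, of which 1 of 4 was called higher and 0 lower. Foxa3, another forkhead gene, read 39.2, 49.0 and 32.5 in control and 94.7, 75.5 and 69.2 in SF1 (0.77; limma adjusted p = 0.00612), all of them dim. Foxa1 had a log2 change of -0.31 (limma adjusted p = 0.101).

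Sox9, a transcription factor gene of gland and other epithelia, was not called on any of its 3 probe sets. The brightest read 122, 156 and 145 in control and 170, 178 and 151 in SF1, so the groups overlapped. Its log2 change was 0.22 (95% interval -0.02 to 0.46; limma adjusted p = 0.201). The other probe sets gave 0.22 and -0.04 and were below the array median on every array.

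Cxcl15, a chemokine gene expressed in uterine glands, fell more than any other member. Its brighter probe set read 1016, 840.2 and 928 in control and 177, 153 and 172 in SF1, and the lowest control array was far above the highest SF1 array. The means were 928 ± 87.9 and 167 ± 12.9 (SD, n = 3), so that control was 5.55 times as high. The log2 change was -2.36 ± 0.10 (SE; 95% interval -2.59 to -2.14; limma adjusted p = 4.84e-06). Its second probe set fell in the same way, from 421 ± 46.8 to 87.3 ± 0.778, a log2 change of -2.07 (limma adjusted p = 6.98e-06). Within each group the arrays were close: the highest SF1 array was 1.16 times the lowest, and the highest control array 1.21 times the lowest. Other chemokines of the same CXC class and their receptors were compared with it. Of 7 measured, 1 was called higher and 0 lower (limma; 3 higher and 0 lower at an unadjusted p under 0.05). The called gene was Cxcl5, a neutrophil attractant, with a log2 change of 5.01 and 1246 ± 1252 intensity units in SF1, and Cxcl2 was called as well without SF1 replicate 2. Cxcl1, another neutrophil attractant, was not called on its brightest probe set (0.39; limma adjusted p = 0.215), but its other 2 probe sets were called higher (2.21 and 1.34; limma adjusted p = 0.00332 and 0.022), with SF1 replicate 2 highest on all 3.

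Foxa2 and Cxcl15, which moved in opposite directions, are the called members with a RefSeq promoter window, and their sequences are shown to set these start regions side by side. Windows were found for 5 members (Foxa2, Cxcl15, Kcnn4, Prss28 and Prss29). Each sequence is the 250 bases before the start site in GRCm38.p6, taken for Foxa2 from the most upstream of its 3 listed starts, at chr2:148046970-148047219 on the minus strand, and for Cxcl15 at chr5:90794284-90794533 on the plus strand. Capitals mark the letters TATAAA.
Foxa2: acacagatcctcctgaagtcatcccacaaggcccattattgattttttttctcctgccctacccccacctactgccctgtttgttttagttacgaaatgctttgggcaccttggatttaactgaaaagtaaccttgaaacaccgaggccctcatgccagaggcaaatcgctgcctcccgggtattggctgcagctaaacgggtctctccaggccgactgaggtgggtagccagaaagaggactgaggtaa
Cxcl15: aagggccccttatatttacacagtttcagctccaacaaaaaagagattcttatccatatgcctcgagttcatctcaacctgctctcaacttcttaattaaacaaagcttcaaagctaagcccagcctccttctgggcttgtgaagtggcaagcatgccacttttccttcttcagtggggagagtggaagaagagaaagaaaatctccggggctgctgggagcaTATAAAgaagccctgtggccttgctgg

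Both strands of the 250 bases were searched for CAAGGTCA, letters bound by SF1, for the forkhead letters TGTTTAC and for TGTTCT, a half-site of the progesterone receptor. None of the 3 was found in the printed Foxa2 and Cxcl15 sequences. They occur in 1.33%, 3.17% and 16.1% of all 32851 RefSeq windows of that length. Among the 5 members with a window, Prss28 alone held one of them, TGTTCT. The letters of a TATA box, TATAAA, were added after the sequences had been seen. They stand in the Cxcl15 sequence shortly before the start, and also in the windows of Prss28 and Prss29 and in 1 of the 3 Foxa2 windows, which is not the one printed. Of all windows, 12.4% hold them on either strand. A match or its absence in these letters says nothing about binding in this uterus.

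Spink1, which encodes a trypsin inhibitor of gland secretions and pancreas, was dim in both groups. Its 1 probe set read 71.7, 88.2 and 64.7 in control and 73.6, 78.2 and 83.7 in SF1, below the array median on every array. The groups overlapped, and the log2 change was 0.06 (95% interval -0.18 to 0.31; limma adjusted p = 0.723). Of 6 other Spink genes measured, 1 was called higher and 0 lower (limma; also 1 and 0 at an unadjusted p under 0.05). That gene was Spink12, at 72.9 ± 9.98 in control and 331 ± 217 in SF1 (1.76; limma adjusted p = 0.0229), which was no longer called in 4 of the 6 fits without 1 array. Of 7 exocrine pancreas genes, the other known source of Spink1, 0 were higher and 1 lower, the carboxypeptidase gene Cpb1 (-0.61). Its means were dim, 49.0 in control and 26.3 in SF1. Cela3b was called higher on 1 of its 4 probe sets (0.35; limma adjusted p = 0.0381), not the brightest. The summed level of the 7 ran from 594 to 734 in control and from 569 to 685 in SF1.

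Prss28 and Prss29 encode implantation serine proteinases secreted by glands, and neither was called. Prss28 read 75.0, 43.3 and 89.1 in control and 56.0, 89.5 and 69.0 in SF1, below the array median on every array. Its control arrays differed by a factor of 2.06, the widest control spread among the members, and the log2 change was 0.06 (95% interval -0.42 to 0.55; limma adjusted p = 0.867). Prss29 read 154, 179.8 and 177 in control and 165, 158 and 157 in SF1 on its brightest probe set. Its log2 change was -0.08 (95% interval -0.27 to 0.11; limma adjusted p = 0.566), and its other 2 probe sets, at -0.08 and 0.01, were dim on every array. The change of Prss28 exceeded that of Prss29 by 0.14 on the log2 scale, which was within the spread between arrays (control SD 0.483; exact permutation p = 0.7, two-sided). Of 7 related trypsin-like protease genes measured, among them the mast cell tryptase Tpsb2, 0 were called in either direction (limma; 1 higher and 0 lower at an unadjusted p under 0.05).

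Ttr, which encodes the carrier of thyroid hormone and of retinol with its binding protein, was lower in SF1 on 1 of its 4 probe sets. The called probe set read 246, 229 and 208 in control and 138, 174 and 131 in SF1, with no overlap. The means were 227 ± 19.0 and 148 ± 23.2 (SD, n = 3), and the log2 change was -0.58 ± 0.11 (SE; 95% interval -0.84 to -0.32; limma adjusted p = 0.0112). The other 3 gave -0.67, -0.11 and -0.50 (limma adjusted p = 0.0517, 0.529 and 0.147). With the mean of all 4, the log2 change was -0.47 and the call was lost (limma adjusted p = 0.0675). SF1 replicate 3 was the lowest array on all 4, and SF1 replicate 2 was the highest of the SF1 arrays on all 4. Names ending in s or x, which 3 of the 4 Ttr probe sets and 7 of the 25 member probe sets have, mark probes that may also bind other transcripts. Of 4 genes that work with Ttr, 0 were higher and 1 was lower, the thyroid hormone receptor gene Thra (-0.59; limma adjusted p = 0.0208), a call kept in 3 of the 6 fits without 1 array. Rbp4, the retinol-binding protein gene, had a log2 change of -0.68 (limma adjusted p = 0.215). Liver, another source of Ttr, showed no called gene among 6 markers (limma; 0 at an unadjusted p under 0.05), with summed levels from 472 to 661 in control and from 487 to 576 in SF1.

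Clu, which encodes a secreted chaperone, had the largest rise of the members and the widest spread. Its brightest probe set read 1772, 1576 and 1774 in control and 8550.1, 13822 and 4759 in SF1. Every SF1 array lay above every control array, but the SF1 arrays differed among themselves by a factor of 2.9, against 1.13 in control. The means were 1708 ± 114 and 9044 ± 4552 (SD, n = 3), a ratio of 5.3, and the log2 change was 2.27 ± 0.31 (SE; 95% interval 1.55 to 2.98; limma adjusted p = 0.00198). The other 3 probe sets gave 2.15, 2.20 and 2.55, all called, and among the SF1 arrays each was highest in replicate 2 and lowest in replicate 3. Neutrophil markers also stood out in SF1 replicate 2: the summed level of 8 genes was 22738 there, 1095 and 805 in SF1 replicates 1 and 3, and from 635 to 1261 in control. S100a8, the gene of a neutrophil calcium-binding protein, read 11518 in that array and between 75.2 and 337 in the other 5. S100a9 read 9468 in SF1 replicate 2, and Camp, Ngp, Csf3r and Cxcr2 were also highest there. Mpo (87.6) and Elane (64.1) lay within the range of the control arrays in SF1 replicate 2. No neutrophil gene was called (limma; 0 of 8, also at an unadjusted p under 0.05), and Clu was still higher without SF1 replicate 2, with a log2 change of 1.89 (limma adjusted p = 0.00197).

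Calb1, which encodes the calcium-binding protein calbindin-D28k of uterine epithelium, was lower in SF1 on all 4 of its probe sets. The brightest read 3055, 2582 and 2996 in control and 1572, 1332 and 2254 in SF1, without overlap. The means were 2878 ± 258 and 1720 ± 478 (SD, n = 3), and the log2 change was -0.77 ± 0.18 (SE; 95% interval -1.17 to -0.37; limma adjusted p = 0.0216). Leaving out any 1 of SF1 replicates 1 and 2 and control replicates 1 and 3 ended this call (limma adjusted p up to 0.0805). The other probe sets gave -1.04, -0.74 and -0.73, and of these the first and the last were called in all 6 fits that left out 1 array. SF1 replicate 3 was the SF1 array nearest to control on all 4 probe sets of Calb1, and likewise on all 4 of Clu. Of 8 other genes of calcium and potassium handling, 0 were called in either direction (limma; 0 higher and 2 lower at an unadjusted p under 0.05). Atp2b1, a calcium pump gene, was called lower on 1 of its 3 probe sets (-0.27), not the brightest. S100g, the gene of the smaller calbindin-D9k, had a log2 change of 0.02 (limma adjusted p = 0.946).

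Kcnn4, which encodes a calcium-activated potassium channel, was not called on either probe set. The brighter read 259, 189.6 and 259 in control and 245, 260.4 and 261 in SF1. Its log2 change was 0.12 (95% interval -0.15 to 0.39; limma adjusted p = 0.532), and the other probe set gave 0.13.

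**Figure D2:**
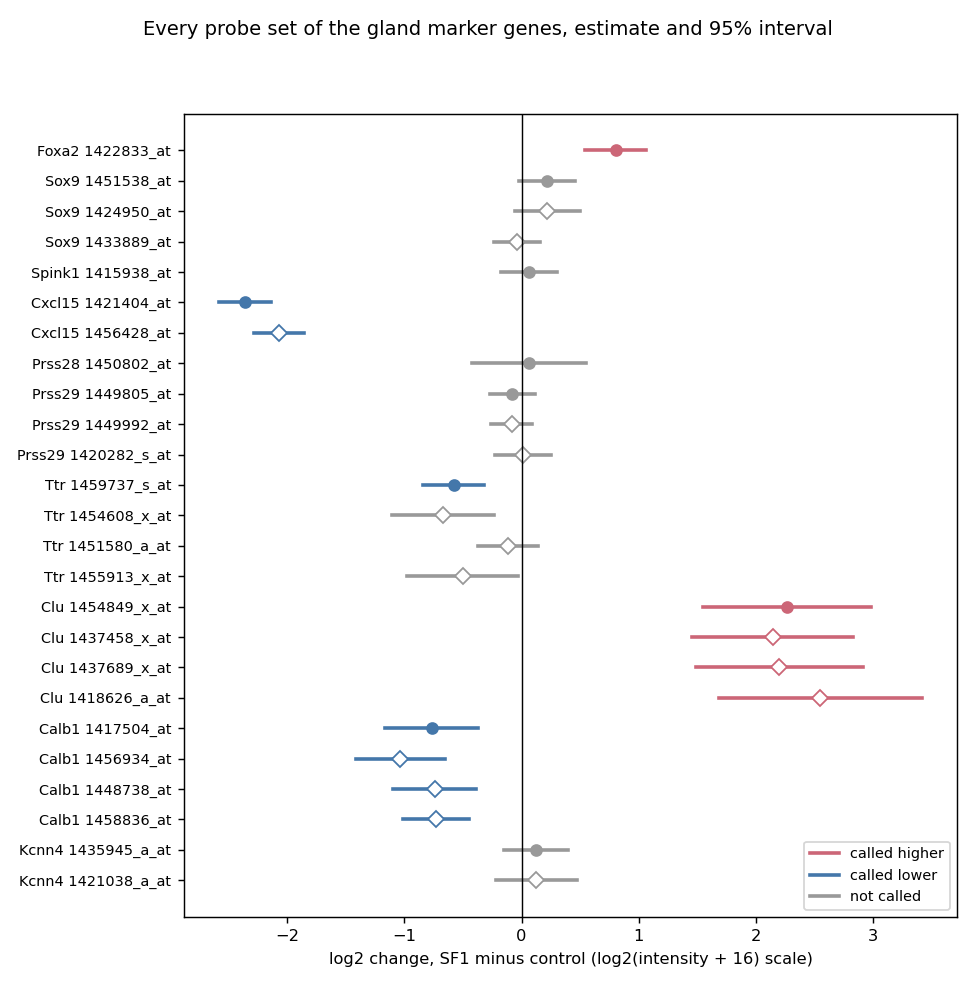
Log2 change (SF1 minus control, log2(intensity + 16) scale) of all 25 probe sets of the gland marker genes with 95% limma intervals, filled circles for the probe set that represents the gene and open diamonds for the others. The probe sets of Cxcl15, Calb1 and Clu lie on 1 side of 0 within each gene and all are called, while 1 of 4 is called for Ttr.

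The arrays of the SF1 group did not rank in 1 order over the called members. On the probe sets that represent the genes, SF1 replicate 2 was lowest for Foxa2, Cxcl15 and Calb1 and highest for Clu and Ttr. Relative to the control mean, Clu lay 2.32, 3.01 and 1.47 higher on the log2 scale in SF1 replicates 1 to 3. For Calb1 the differences were -0.86, -1.10 and -0.35 in the same arrays. On these probe sets Clu and Calb1 were thus both farthest from control in SF1 replicate 2 and both nearest in SF1 replicate 3. For Calb1 the farthest array depended on the probe set. It was SF1 replicate 1 on the probe sets with log2 changes of -1.04 and -0.74. These read 143, 176 and 238, and 95.2, 119 and 160, in SF1 replicates 1 to 3. Cxcl15 varied least among the called members, at -2.29, -2.48 and -2.32.

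The genes most like a member were those with the smallest root mean square distance over the 6 arrays, in log2 values relative to the control mean. For Foxa2 these were Traf3ip1 (distance 0.04, log2 change 0.80), Klhl29 (0.05, 0.83) and Fam149a (0.06, 0.84). For Cxcl15 they were Cd83 (distance 0.14, log2 change -2.45), Coch (0.17, -2.32) and Fads2b (0.20, -2.36). For Clu they were Car12 (distance 0.27, log2 change 2.34), Tesc (0.31, 2.45) and AA467197 (0.31, 2.31). The distances are not scaled to the spread of a member, so those of Clu and Foxa2 cannot be compared.

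Among the other listed genes linked to glands, more fell than rose. Of 8 measured, 1 was called higher and 4 lower, beside 8.37% and 8.11% of all genes. The median log2 change was -0.50, beside -0.05 over all genes. The list was chosen with earlier results of these data known, so its counts are no test of gland genes at large. Sult1d1, a sulfotransferase gene, read 3384, 3963 and 2828 in control and 855, 671 and 828 in SF1 (-2.08; limma adjusted p = 4.12e-05). Fxyd4, a regulator of the sodium pump, read 2586, 3104 and 2555 in control and 615, 809 and 981 in SF1 (-1.78; limma adjusted p = 0.000189). The other 2 that fell were Lgr5, a receptor gene of epithelial stem cells (-1.40, on 1 of 2 probe sets), and Aldh1a1, which encodes a retinaldehyde dehydrogenase (-0.82). Muc1, a cell surface mucin gene, rose from 242 ± 28.0 to 981 ± 211 (SD, n = 3; 1.93, limma adjusted p = 0.000113). Without SF1 replicate 3 Prom1, a stem cell surface gene, was called higher too.

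Lif, the gland cytokine gene that depends on Foxa2 at implantation, was not called. It read 83.9, 72.6 and 104 in control and 113, 83.3 and 83.5 in SF1, dim values that overlapped (log2 change 0.09; limma adjusted p = 0.706). Over the 9 genes of its pathway, 2 were called higher, 2 lower and 5 neither. Stat3, the transcription factor downstream of the receptor, rose by 0.61 (1 of 4 probe sets; limma adjusted p = 0.0254), and Egr1, an early response gene, by 0.48 (limma adjusted p = 0.0176). Neither was called without SF1 replicate 1 or without SF1 replicate 2. Socs3, a feedback inhibitor of the pathway, was called higher without SF1 replicate 2 only (0.85 with all arrays; limma adjusted p = 0.0745). Msx1, an epithelial homeobox gene (-1.48), and Hbegf, a growth factor gene of the implantation site (-0.48, on 1 of 2 probe sets), fell. The receptor genes Lifr (0.10) and Il6st (-0.23) were not called.

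Among the listed genes that act in gland growth, more were lower than higher. Of 17 measured, 3 rose, 9 fell and 5 were not called, with a median log2 change of -0.46. Of all genes, 8.37% were called higher and 8.11% lower. Each fit without 1 array gave the same counts, though these fits share arrays. This list too was chosen with earlier results known, so its counts are no test of gland growth genes at large. Among Wnt genes, Wnt7a of the luminal epithelium (-1.50, on 1 of 3 probe sets) and Wnt5a of the stroma (-1.13) fell. Wnt4 rose by 0.84 and Wnt11 was not called (-0.15). Axin2, a target of Wnt signalling, fell by 0.84 on the log2 scale, on 1 of its 2 probe sets. The receptor gene Lgr4, which acts in Wnt signalling, rose by 1.23 on 1 of 2 probe sets, and the adherens junction gene Cdh1 by 0.71. The homeobox genes Hoxa10 (-0.73) and Hoxa11 (-1.05), the transcription factor gene Sox17 (-1.05), the growth factor receptor gene Fgfr2 (-0.46) and the planar polarity gene Vangl2 (-0.53) were lower. Ctnnb1, which encodes beta-catenin (0.03), and the estrogen receptor gene Esr1 (-0.19) were not called.

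Beside the glands, 12 genes shared by epithelial cells were measured. Their mean log2 value was 0.31 higher in SF1, with 5 called higher and 1 lower. The median log2 change of these genes was smaller, 0.22. Their summed level ran from 19458 to 20517 in control and from 22442 to 24859 in SF1. Krt7 (1.80) and Cdh1 rose most, and Krt19 was lower (-0.36), while Krt8 (0.25) and Krt18 (-0.08) were not called. The count of 5 fell to 2 without SF1 replicate 1 and to 3 without SF1 replicate 2, control replicate 1 or control replicate 3, and Krt19 lost its call in 4 of the 6 such fits. When every array was centred on these 12 genes, Foxa2 (0.49; limma adjusted p = 0.00638) and Clu (1.96) remained higher, and Cxcl15 (-2.67), Calb1 (-1.08) and Ttr (-0.89) remained lower. Prss29 was then also called lower (-0.39; limma adjusted p = 0.00908). However, this centring called 12889 of all 18193 genes, only 6.16% of them higher, so a call of lower was common. All 4 measured genes of luminal epithelium fell, and their summed level was 3377 to 3607 in control and 1129 to 1323 in SF1. Their falls ran from -1.31 for Lpar3, a lysophosphatidic acid receptor gene, to -1.50 for Wnt7a, which was called on 1 of its 3 probe sets.

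Hormone response genes moved in both directions, and in whole uterine horn changes in epithelium, stroma and muscle cannot be told apart. Of 10 progesterone response genes, 0 were called higher and 7 lower (limma; 1 higher and 8 lower at an unadjusted p under 0.05). Pgr, whose locus holds the Cre allele, fell from 4797 ± 89.0 to 1893 ± 158 (SD, n = 3; -1.34, limma adjusted p = 3.23e-05), and the largest other falls were those of Ptch1 (-1.36), the Hedgehog receptor gene, and Ihh (-1.33), its ligand gene. Acod1 was called higher without SF1 replicate 1 or 2, and the calls of Il13ra2 and Cyp26a1 were lost in 5 of the 6 fits without 1 array. Of 7 estrogen response genes, 5 rose and 1 fell. The rises were led by the lactotransferrin gene Ltf (4.41) and Sprr2f (3.89), while Clca1 fell (-1.28, on 1 of 2 probe sets). Igf1, a growth factor gene, was the one not called, but 1 of its 4 probe sets was called higher (0.32). Pgr dose, Cre and SF1 differed together between the groups and cannot be told apart.

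**Figure D3:**
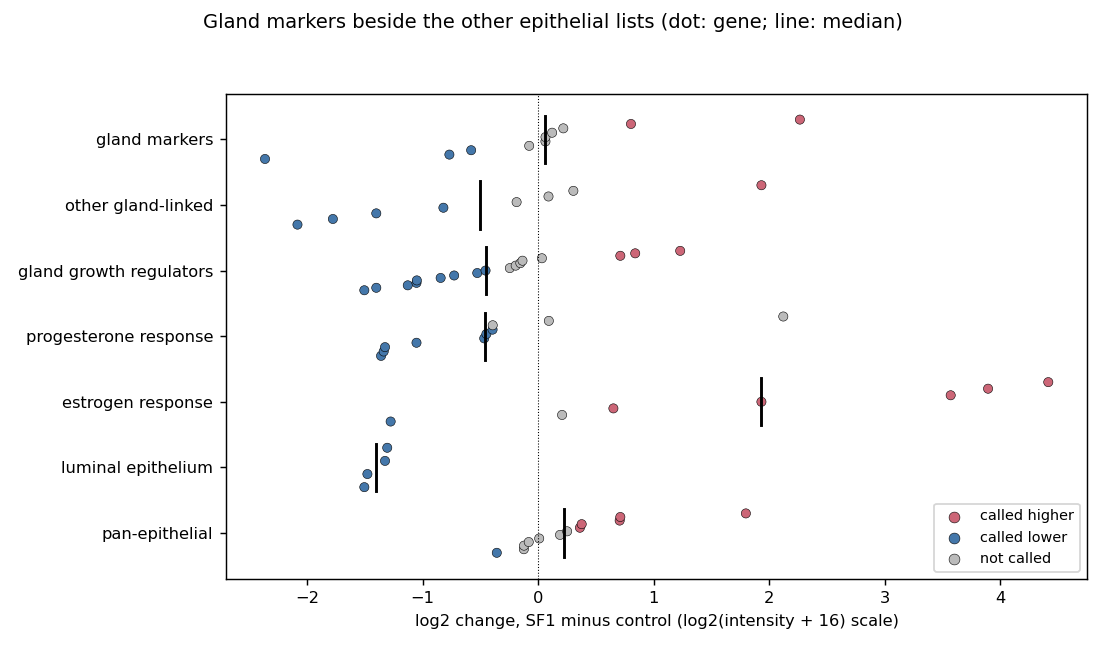
Log2 change (SF1 minus control) of each gene in the gland marker list and in 6 other lists, with called genes coloured and a line at the median of each list. Some of the listed genes are also made in stroma. The gland markers spread to both sides of 0 with a median of 0.06, the 4 luminal genes all lie at -1.31 or lower, and the estrogen response genes reach 4.41.

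Markers of other cells that a uterine horn can hold moved as well, and their part in the gland marker results was not tested. Of the 7 genes in the ciliated cell list, 4 rose and 1 fell. Ccdc153 rose from 22.2 ± 3.24 to 1568 ± 533 (SD, n = 3; 5.32, limma adjusted p = 4e-06), and the dynein light chain gene Dynlrb2 from 46.2 ± 6.0 to 1555 ± 431 (4.63; limma adjusted p = 4e-06). The radial spoke gene Rsph4a (3.53) and the ciliary regulator Foxj1 (0.88) rose too. Tppp3 (0.71; limma adjusted p = 0.0621) and Dnah5 (0.23; limma adjusted p = 0.287) were not called. The gene that fell was the oviductin gene Ovgp1 (-0.73), which is not a gene of cilia. The summed level of all 7, Ovgp1 included, was 2082 to 2276 in control and 5567 to 8774 in SF1, highest in SF1 replicate 3. Of 9 stromal genes, 0 rose and 5 fell (limma; also 0 and 5 at an unadjusted p under 0.05), among them the transcription factor gene Hand2 (-0.88) and the growth factor receptor gene Pdgfrb (-0.78). Vim (-0.02), Col1a1 (0.05), Col3a1 (0.15) and Lum (0.06) were not called. The stromal sums were 54249 to 57358 in control and 46062 to 49342 in SF1. Their largest part was Dcn, which fell from a mean of 18925 to 14630. All 6 endothelial genes fell, led by the cadherin gene Cdh5 (-0.83, on 1 of 2 probe sets) and the angiopoietin receptor gene Tek (-0.63). Their sums were 4065 to 4177 and 2491 to 2905, though Pecam1 and Tie1 lost their calls in 5 of the 6 fits without 1 array. Of 6 macrophage genes, 5 rose and 0 fell, led by Aif1 (1.45) and the complement gene C1qa (1.02), with sums of 3177 to 4816 and 6377 to 8032, and 3 rose without SF1 replicate 1 or SF1 replicate 2. No smooth muscle gene of 7 was called (limma; 1 higher and 1 lower at an unadjusted p under 0.05), with sums of 28342 to 31090 and 30665 to 33070. Of 6 ovary genes, Inha rose by 0.78 and Foxl2, which uterine stroma also expresses, fell (-1.17, on 1 of 2 probe sets). The oocyte genes Gdf9, Zp3 and Oosp1 were not called. The sums of the 6 were 2453 to 2577 in control and 1449 to 1605 in SF1. Most of each sum was Foxl2, with means of 1807 and 795. Amh, a granulosa cell gene, was called lower without SF1 replicate 2 only.

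**Figure D4:**
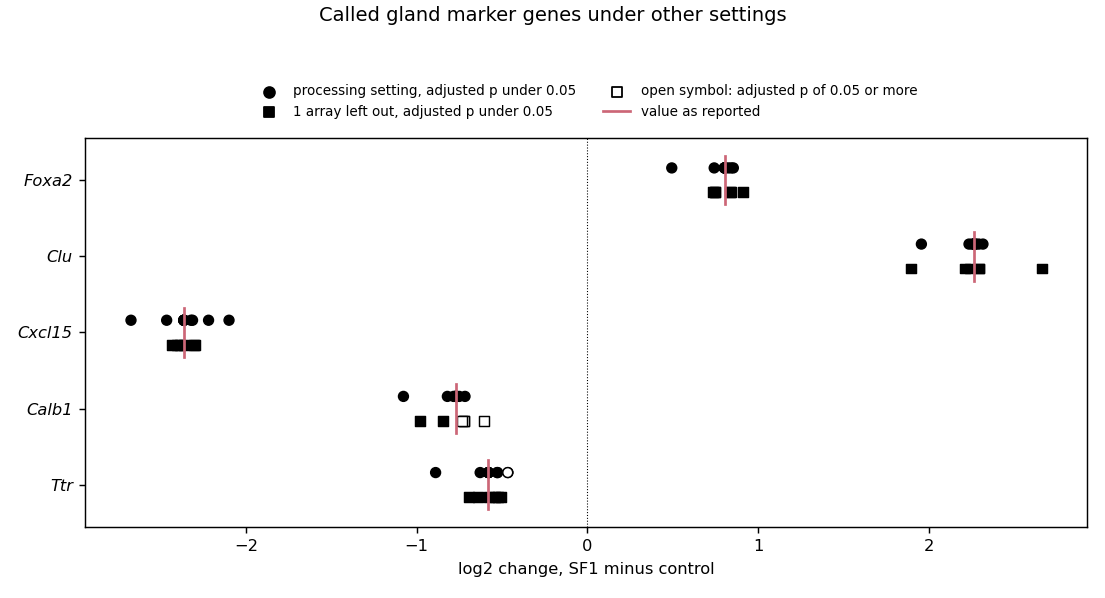
Log2 change (SF1 minus control) of the 5 called gland marker genes as reported (red line), under each other processing setting (circles) and with 1 array left out (squares), open where the adjusted p is 0.05 or more. The sign of all 5 genes is the same throughout, and open symbols occur for Calb1 with 1 array left out and for Ttr with the mean of its probe sets (-0.47).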

How the data were processed

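The members and the gene lists beside them were chosen with earlier results of these data known. The authors deposited 1 table of probe set intensity values on a linear scale for 6 arrays, per the labels from biotin-labelled total RNA on the GeneChip Mouse Genome array. For background correction, normalization and summarization the software was not given in the sources used here, and these steps would affect dim probe sets most. Of 45101 probe sets, 64 control probe sets were set aside and 45037 tested. The platform annotation gave 34945 of them 1 symbol, 932 several and 9160 none, and only those with 1 were named. The fit used limma 3.58.1 (lmFit, eBayes) in R 4.3.3 on log2(value + 16), with Benjamini-Hochberg adjustment over all tested probe sets. The fit was tested on simulated arrays. Taking a gene's probe set by its mean log2 value rather than its linear mean was settled after values had been seen, so as to match an earlier count of called genes, and the linear mean was run as an alternative.

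Named were all members, up to 2 called genes with the largest rise and 2 with the largest fall of each list, its defining markers or receptors, and the 3 nearest genes of Foxa2, Cxcl15 and Clu, with clone and predicted names passed over. Other list genes were named after their values were seen. Centring on the 12 pan-epithelial genes, quantile normalization, median centring, a filter, pseudocounts of 1 and 64, a replicate block, eBayes with trend and robust, averaged probe sets per gene and leaving out each array were the alternatives. The number of arrays limits the precision.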

Additional observations from a re-analysis of the deposited data

How the results depend on the processing

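With 3 arrays a group and no detection call, small changes of dim probe sets cannot be resolved. Below the array median on every array were 8: those of Spink1 and Prss28, the others of Sox9, Prss29 and Kcnn4, and the dimmest of Ttr. The probe sets that represent Sox9 (4 arrays), Prss29 (2), Ttr (2) and Cxcl15 (1) were below it on some arrays. The counts of 3 lower and 2 higher member genes stayed within 1.5 times under every setting run. Centring on the pan-epithelial genes lowered all log2 changes by 0.31 and called 12889 genes, only 6.16% of them higher, against 2998 and 50.8% as deposited (58% after quantile normalization and 62.8% after median centring, which moved the median of all genes by 0.04 and 0.05). Under that centring 19 member probe sets were called instead of 12, the median of the members was -0.25, Sox9 (-0.092), Spink1 (-0.25), Prss28 (-0.25) and Kcnn4 (-0.19) turned sign without a call, and Prss29 was called. The members' median was -0.078 with brighter probe sets only, which kept 7 of the 10 genes. Of the uncalled members, 3 turned sign in fits without 1 array: Spink1 ran from -0.018 (without control replicate 3) to 0.17, Prss28 from -0.18 (without control replicate 2) to 0.23, with -0.081 without SF1 replicate 2, and Kcnn4 from -0.019 (without control replicate 2) to 0.19. Leaving out 1 array gave 2 to 3 genes called lower, 10 to 13 member probe sets called, a member median of -0.03 to 0.12 and a difference between Prss28 and Prss29 of -0.14 to 0.29. Over those fits Calb1 ran from -0.98 to -0.60 and Ttr from -0.69 to -0.51. Same-numbered arrays did not deviate together (correlations -0.06, -0.10 and -0.18), and different-numbered arrays gave correlations from -0.03 to 0.15. Deviations from means of only 3 arrays cannot settle whether equal numbers mark pairs. The replicate block called 2071 genes and again 3 member genes lower and 2 higher, with 12 member probe sets. With the probe set taken by its linear mean, an alternative chosen after seeing the data, 39 genes had another probe set, 0 of them a member or a list gene, and 3013 genes were called.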
